A study of Mus musculus with 8 samples.

Results

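The RAF-MEK-ERK cascade was followed through the messenger RNA of 8 of its genes, Sos1, Nf1, Braf, Araf, Ksr1, Map2k1, Map2k2 and Mapk3, chosen by name as rows of the deposited table. All 8 were found among 24907 symbols, and all 8 were among the 12538 genes abundant enough to be tested. These 8 genes were chosen with earlier results of these data known. The RNA came from ASZ001, a mouse basal cell carcinoma line, in 4 groups of 2 libraries. Knockdown cells carried an shRNA against Tgfbr1, the type I TGF-beta receptor, and NS cells a non-silencing shRNA. The groups were knockdown cells with Dox and 4OHT (labelled RasV12, an activated form of Ras), knockdown cells with DMSO, NS cells with Dox and 4OHT (also labelled RasV12), and NS cells with DMSO. Dox usually stands for doxycycline and 4OHT for 4-hydroxytamoxifen, both used to switch on engineered genes. All libraries with RasV12 had both drugs and all others had DMSO, so activated Ras and the drugs cannot be told apart, and "Ras response" below stands for both. Whether the cells given DMSO also carried RasV12 is not given, so a difference between cell lines may be part of it too. The sources used here do not give the promoter behind RasV12, the doses and times, the number of clones or the origin of replicate libraries, so p-values measure the spread between these libraries, which may be technical.

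The cascade carries signals from growth factor receptors to the nucleus. Sos1 encodes an exchange factor that loads Ras with GTP, and Nf1 encodes neurofibromin, a GTPase-activating protein that switches Ras off. Ras bound to GTP activates the RAF kinases (Braf and Araf encode members), which phosphorylate the MEK kinases (Map2k1 and Map2k2). These in turn phosphorylate the ERK kinases (Mapk3 encodes ERK1), while Ksr1 encodes a scaffold that brings RAF, MEK and ERK together. In mouse skin, mutated Ras is known as a driver of squamous tumours, whereas basal cell carcinoma is driven by the Hedgehog pathway.

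Library totals were between 12724604.5 and 16233379 estimated counts. Tgfbr1 was at 8.86 and 9.38 CPM in knockdown and 104 and 91.6 CPM in NS libraries under Dox and 4OHT, and at 10.2 and 8.08 CPM in knockdown and 77.1 and 80.4 CPM in NS libraries under DMSO. CPM is the library-size-scaled count, with edgeR's TMM factors. The levels matched the shRNA labels in all 8 libraries. The basal keratinocyte markers Krt5, Krt14, Trp63, Itgb4 and Itga6 were each at 369 CPM or more in every library. Of the Hedgehog pathway genes taken as markers of basal cell carcinoma, Gli1 was at only 0.521 to 3.23 CPM. Ptch1 was at 11.2 to 21.1 CPM and Gli2 at 10.4 to 15.9 CPM. The summed level of the basal keratinocyte markers was 11002 to 11473 CPM in knockdown cells with Ras, 15039 to 15771 CPM in knockdown cells with DMSO, 11838 to 12044 CPM in NS cells with Ras and 24313 to 24615 CPM in NS cells with DMSO. The part of these and the following markers in the results was not tested. Of the markers of other cell types, Ptprc, Cd3e and Adgre1 (immune), Cdh5 and Kdr (endothelial), Dct, Tyrp1 and Mlana (pigment cells) and Lum (fibroblasts) did not exceed 0.213 CPM in any library. Of the other markers on these lists, Pmel (pigment cells) was at 3.37 to 6.25 CPM, and the fibroblast markers Dcn, Pdgfra, Col1a1 and Col1a2 reached 2.46, 1.46, 0.622 and 0.293 CPM. Cd68, also listed as an immune marker, ranged from 4.51 to 15.5 CPM, and Pecam1, listed as endothelial, from 22.4 to 37.0 CPM. The immune list summed to 14.8 to 15.5 CPM in knockdown cells with Ras, 4.51 to 4.92 in knockdown cells with DMSO, 7.32 to 7.80 in NS cells with Ras and 7.65 to 8.95 in NS cells with DMSO. In such bulk RNA, fewer cells expressing a gene and less RNA per cell cannot be told apart.

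Ksr1 varied most over the groups, and Map2k1 was the one of the RAF, MEK and ERK genes followed here whose Ras response differed most between knockdown and NS cells, so the sequence upstream of their start sites is shown. The windows hold the 250 bases before each start in RefSeq's GRCm38.p6 annotation, on the minus strand for both genes, and a different build from the mm9 named for the counts. RefSeq listed 2 starts for Ksr1, at chr11:79146474-79146723 (start 1) and chr11:79059837-79060086 (start 2), and 1 for Map2k1, at chr9:64253606-64253855. Capitals mark matches on either strand to the motifs searched, which were AP-1 (TGANTCA), ETS (CCGGAAGT), CRE (TGACGTCA), SP1 (GGGCGG), SMAD (GTCTAGAC) and TEAD (GGAATG).
Ksr1 start 1: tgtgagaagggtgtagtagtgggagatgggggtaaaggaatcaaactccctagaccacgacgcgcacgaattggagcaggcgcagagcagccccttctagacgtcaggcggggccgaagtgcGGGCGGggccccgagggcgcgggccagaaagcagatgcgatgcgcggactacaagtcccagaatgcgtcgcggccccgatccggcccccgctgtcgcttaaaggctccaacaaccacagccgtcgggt
Ksr1 start 2: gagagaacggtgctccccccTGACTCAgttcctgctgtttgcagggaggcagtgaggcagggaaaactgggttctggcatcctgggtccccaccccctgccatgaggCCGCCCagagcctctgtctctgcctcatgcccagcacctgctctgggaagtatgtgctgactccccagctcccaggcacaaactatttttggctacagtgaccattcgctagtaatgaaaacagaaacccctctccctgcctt
Map2k1: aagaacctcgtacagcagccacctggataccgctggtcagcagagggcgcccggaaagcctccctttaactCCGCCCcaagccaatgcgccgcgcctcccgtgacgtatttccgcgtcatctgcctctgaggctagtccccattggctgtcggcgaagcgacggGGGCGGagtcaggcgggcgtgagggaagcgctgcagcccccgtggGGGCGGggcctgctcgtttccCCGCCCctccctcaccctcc
The first Ksr1 window held 1 SP1 match, the second held 1 AP-1 and 1 SP1 match, and the Map2k1 window held 4 SP1 matches. Of 32851 windows of the same length, 32.7% held at least 1 SP1 match and 6.75% at least 1 AP-1 match. The SP1 motif consists of G and C only, and these shares were not matched for base composition. G and C made up 64.4% and 58% of the Ksr1 windows (starts 1 and 2) and 68.4% of the Map2k1 window. The median over all windows was 52.4%. Windows were found for 7 of the 8 genes. Elsewhere among them, Nf1 had 1 ETS match (2.88% of all windows had one), Braf 2 CRE matches (1.55%) and 1 SP1 match, Map2k2 1 SP1 match and Araf 1 TEAD match (12.6%). No window of these genes held the SMAD motif (0.167% of all windows), and that of Sos1 held no match. The matches describe letters in these windows only.

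Per kilobase of annotated length, the 8 genes covered a wide span. Map2k2 had the highest level, 71.3 to 95.5 CPM per kb over the 8 libraries, followed by Mapk3 at 38.8 to 60.7 and Map2k1 at 23.9 to 33.0 CPM per kb. Araf lay at 13.2 to 15.5, Sos1 at 11.5 to 16.1, Nf1 at 8.85 to 14.9 and Braf at 7.13 to 9.14 CPM per kb. The ranges of Araf, Sos1 and Nf1 overlapped, as did those of Nf1 and Braf. Ksr1 was lowest, at 0.333 to 1.92 CPM per kb, and its values rested on 25.5 to 147 counts a library, against at least 424 counts for each of the other 7 genes.

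**Figure D1:**
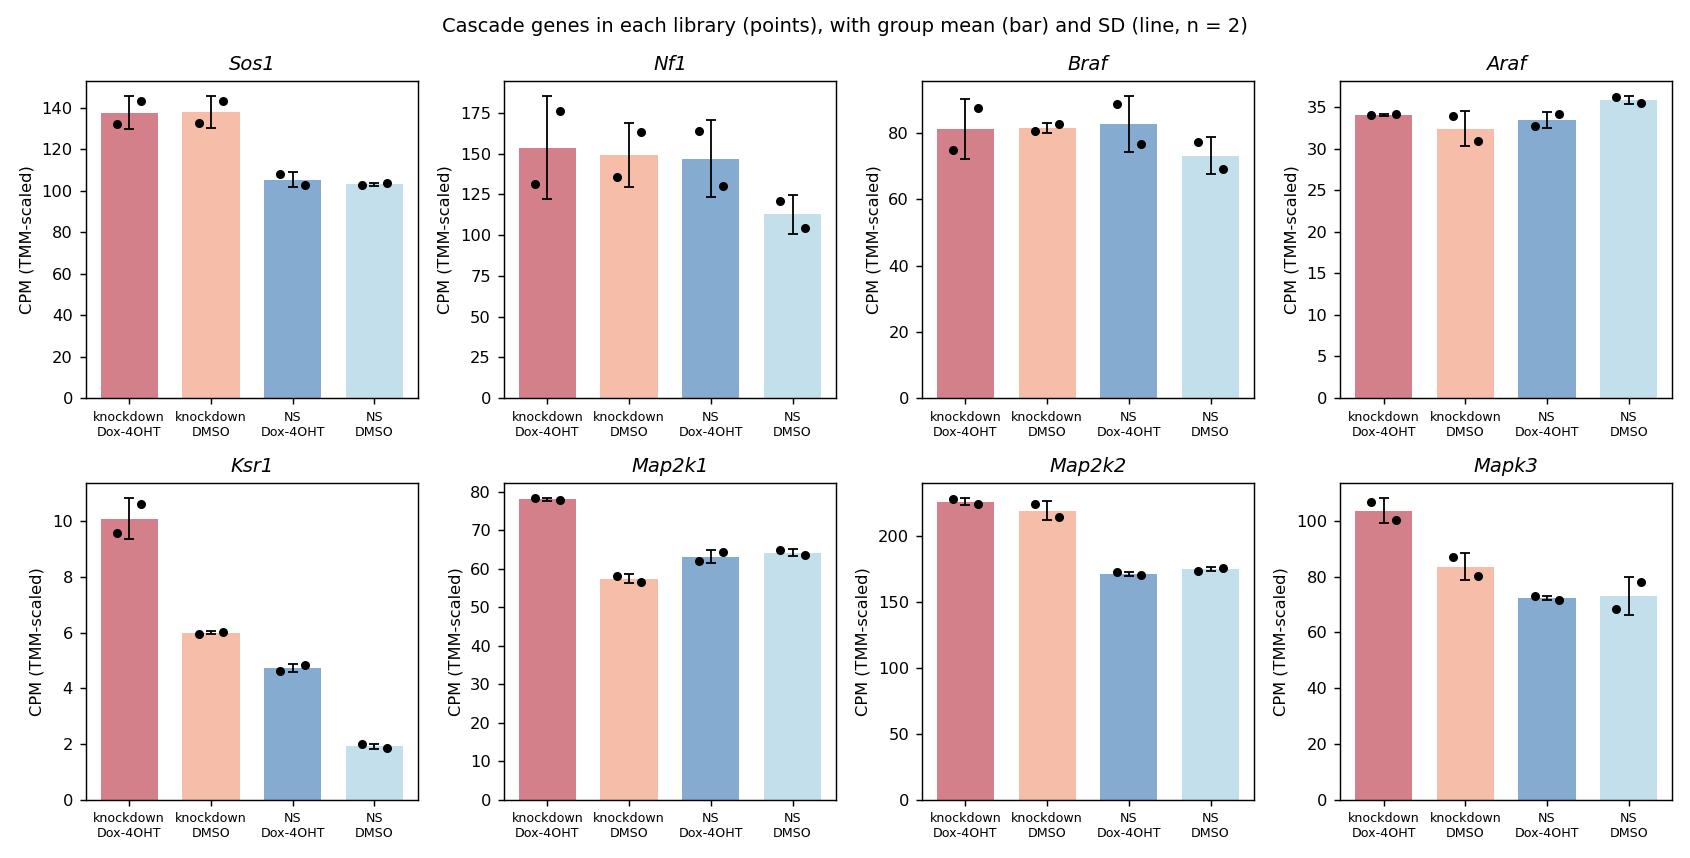
Level of each of the 8 genes in CPM (TMM-scaled, linear axis from 0) in the 4 groups; points are single libraries, bars the mean of 2 libraries and lines the SD. Ksr1 is lowest in NS cells with DMSO (1.99 and 1.85 CPM) and highest in knockdown cells with Ras (9.58 and 10.6 CPM), while Map2k1 stands above the other groups in knockdown cells with Ras alone (78.3 and 77.8 CPM).

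The knockdown effect under Dox and 4OHT compares cells with the Tgfbr1 shRNA and cells with the non-silencing shRNA, both with activated Ras. Reduced receptor cannot be told apart here from other differences between the shRNA lines. Sos1, Ksr1, Map2k1, Map2k2 and Mapk3 rose in knockdown cells, by 1.24-fold (Map2k1) to 2.12-fold (Ksr1), and Nf1, Braf and Araf did not pass the test. Thus 5 of 8 genes were called higher and 0 lower, where 30.5% of all tested genes were called higher and 29.7% lower. A call is an adjusted p of at most 0.05 in the edgeR quasi-likelihood fit, adjusted after Benjamini and Hochberg over every tested gene, and this holds for each adjusted p below unless DESeq2 is named. The 4 comparisons share libraries in pairs, so their results are not independent. The median log2 change was 0.34 over the 8 genes and -0.01 over all tested genes. These 5 calls passed under all 15 alternative settings tried.

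Upstream of Ras, Sos1 stood at 132 and 143 CPM in knockdown libraries with Ras, against 108 and 103 CPM in NS libraries with Ras. Both knockdown libraries lay above both NS libraries, and the log2 change was 0.38 ± 0.05 (SE; adjusted p = 1.47e-07). Nf1 was at 131 and 176 CPM in knockdown libraries with Ras, against 164 and 130 CPM in NS libraries with Ras. The groups overlapped, and the change of 0.06 had a 95% interval from -0.55 to 0.66. Nf1 differed more between replicates than any other of the 8 genes, and it is also the longest, at 11787 bases. Among the 531 tested entries over 8 kb, the median log2 difference of replicate 2 minus replicate 1 was 0.11 in knockdown cells with Ras, 0.07 in knockdown cells with DMSO, -0.11 in NS cells with Ras and -0.06 in NS cells with DMSO. Nf1 went the same way as these entries in each group. Braf (9703 bases) and Sos1 (8895 bases) are also among them.

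At the RAF tier, Braf was at 74.8 and 87.5 CPM in knockdown libraries with Ras and at 88.7 and 76.8 CPM in NS libraries with Ras. Araf was at 34.0 and 34.2 CPM in knockdown libraries with Ras and at 32.7 and 34.1 CPM in NS libraries with Ras. The groups overlapped for both kinases. The log2 change was -0.03 for Braf (95% interval -0.24 to 0.17) and 0.03 for Araf (-0.12 to 0.17). The scaffold gene Ksr1 had 9.58 and 10.6 CPM in knockdown libraries with Ras, against 4.63 and 4.83 CPM in NS libraries with Ras. The groups were far apart for their spread, with a log2 change of 1.09 ± 0.15 (adjusted p = 5.47e-07). The long noncoding gene Gm11201 overlaps Ksr1 in RefSeq and held 66 counts over all libraries, against 629.5 for Ksr1.

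At the MEK tier, Map2k1 was at 78.3 and 77.8 CPM in knockdown libraries with Ras, against 62.0 and 64.3 CPM in NS libraries with Ras, a log2 change of 0.31 ± 0.05 (adjusted p = 1.45e-05). Map2k2 was at 228 and 224 CPM in knockdown libraries with Ras, against 173 and 171 CPM in NS libraries with Ras, a log2 change of 0.40 ± 0.04 (adjusted p = 7.85e-10). Both MEK genes were thus higher in each knockdown library with Ras. Uchl4 lies within Map2k1 on the other strand in RefSeq, and no strand setting is known for the counting. It was at 14.8 to 16.8 CPM and passed in none of the 5 comparisons. Mapk3, the ERK1 gene, had 107 and 100.5 CPM in knockdown libraries with Ras, against 73.0 and 71.8 CPM in NS libraries with Ras, a log2 change of 0.52 ± 0.06 (adjusted p = 3.8e-08). Both knockdown libraries lay above both NS libraries.

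The knockdown effect under DMSO asks the same without Dox and 4OHT. Sos1, Ksr1, Map2k2 and Mapk3 rose in knockdown cells and Map2k1 fell, while Nf1, Braf and Araf did not pass the test. That is 4 genes higher and 1 lower of 8, against 30.9% higher and 31% lower among all tested genes. The median log2 change of the 8 was 0.26, and that of all tested genes 0.00. The calls of Sos1, Ksr1 and Map2k2 passed under all 15 alternatives. Those of Map2k1 and Mapk3 did not: without NS DMSO replicate 1 the number of called genes was 3 of 8, as with DESeq2.

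Ksr1 showed the largest difference of the 8, with 5.96 and 6.04 CPM in knockdown libraries, against 1.99 and 1.85 CPM in NS libraries. Both knockdown libraries lay far above both NS libraries, a fitted difference of 3.11-fold and a log2 change of 1.64 ± 0.20 (adjusted p = 6.28e-08). Sos1 was at 132 and 143 CPM in knockdown libraries, against 103 and 104 CPM in NS libraries (0.42 ± 0.05, adjusted p = 2.58e-08). Map2k2 was at 224 and 215 CPM in knockdown libraries, against 174 and 176 CPM in NS libraries (0.33 ± 0.04, adjusted p = 2.83e-08). The knockdown libraries of Sos1 and Map2k2, like those of Ksr1, lay above the NS libraries.

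Mapk3 had 87.0 and 80.2 CPM in knockdown libraries with DMSO, against 68.3 and 77.9 CPM in NS libraries with DMSO. The groups were close, with a log2 change of 0.20 ± 0.06 (adjusted p = 0.00646). Without NS DMSO replicate 1, the lower of the NS libraries, the change was 0.11 (adjusted p = 0.168), and without NS DMSO replicate 2 it was 0.30. Without knockdown DMSO replicate 1 the adjusted p was 0.0682 and with DESeq2 0.0554. Map2k1 was at 58.2 and 56.6 CPM in knockdown libraries with DMSO, against 64.8 and 63.5 CPM in NS libraries with DMSO, a log2 change of -0.16 ± 0.05 (adjusted p = 0.0116). Its call ended without NS DMSO replicate 1 (adjusted p = 0.107), without knockdown DMSO replicate 2 (0.0945) and with DESeq2 (0.131).

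Nf1 was at 135 and 163 CPM in knockdown libraries with DMSO, against 121 and 104 CPM in NS libraries with DMSO. Although these libraries did not overlap, the log2 change of 0.41 had a 95% interval from -0.21 to 1.02 (adjusted p = 0.193). Braf was at 80.5 and 82.6 CPM in knockdown libraries, against 77.2 and 69.2 CPM in NS libraries, a log2 change of 0.15 (95% interval -0.05 to 0.36, adjusted p = 0.173). Araf was at 33.9 and 30.9 CPM in knockdown libraries, against 36.2 and 35.5 CPM in NS libraries, a log2 change of -0.15 (adjusted p = 0.0685). Braf passed in 5 of the 15 alternatives (lowest adjusted p = 0.00498, with no low-count filter), among them the fit without each of the knockdown libraries with Ras. Araf passed in 1, without knockdown DMSO replicate 1 (0.0469).

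**Figure D2:**
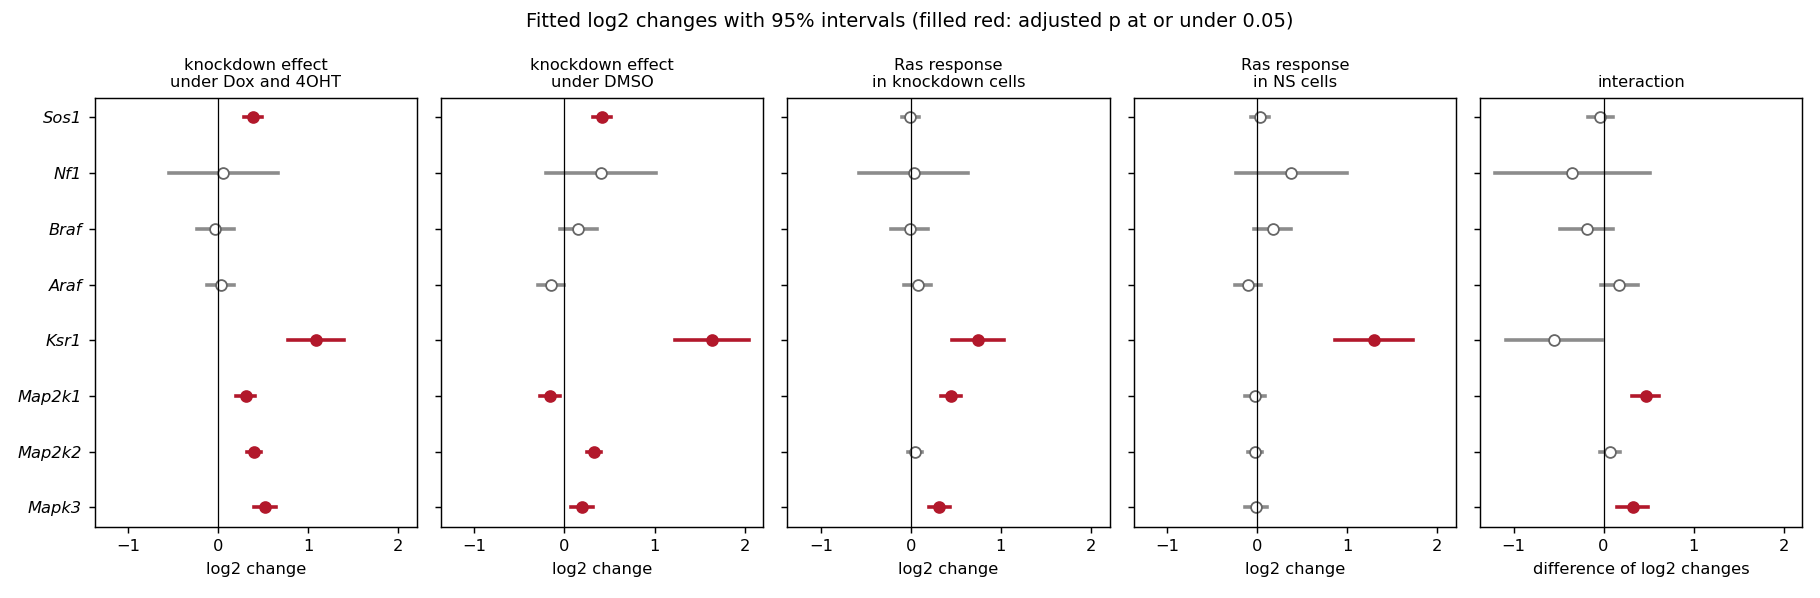
Fitted log2 changes (points) with 95% intervals (lines) of the 8 genes in the 4 comparisons and in the interaction, on a shared axis; filled red points had an adjusted p of at most 0.05. The knockdown panels hold 5 red points each, and the Ras response holds 3 in knockdown cells and 1, Ksr1, in NS cells.

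The Ras response in knockdown cells compares Dox and 4OHT with DMSO where Tgfbr1 was silenced. Ksr1, Map2k1 and Mapk3 rose with Ras, by 1.68-fold, 1.36-fold and 1.24-fold, and the other 5 genes did not pass the test. So 3 of 8 were called higher and 0 lower, against 19.5% higher and 16.6% lower among all tested genes, and these 3 calls passed under all 15 alternatives. Map2k1 was at 78.3 and 77.8 CPM with Ras, against 58.2 and 56.6 CPM with DMSO (0.44 ± 0.05, adjusted p = 1.79e-07). Mapk3 was at 107 and 100.5 CPM with Ras, against 87.0 and 80.2 CPM with DMSO (0.31 ± 0.06, adjusted p = 0.000113). For Ksr1, with 9.58 and 10.6 CPM with Ras, against 5.96 and 6.04 CPM with DMSO, the log2 change was 0.75 ± 0.14 (adjusted p = 0.000145). The libraries with Ras lay above those with DMSO for each of these called genes. They did so for Araf as well, which did not pass (adjusted p = 0.455). How many of all tested genes were separated in this way was not counted, so the separation is given as a description.

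The remaining genes gave the following intervals for the Ras response in knockdown cells. Sos1 had a log2 change of -0.01 (95% interval -0.10 to 0.09) and Map2k2 one of 0.04 (-0.03 to 0.12), so that a change as large as that of Map2k1 lay outside both intervals. Braf had -0.01 (-0.22 to 0.19), Araf 0.07 (-0.07 to 0.22) and Nf1 0.03 (-0.57 to 0.63).

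The Ras response in NS cells had the fewest calls among the 8 cascade genes, though not over all tested genes. Ksr1 alone of the 8 rose, with 4.63 and 4.83 CPM with Ras, against 1.99 and 1.85 CPM with DMSO, a log2 change of 1.30 ± 0.21 (adjusted p = 1.43e-05). That is 1 higher and 0 lower of 8, against 20.8% higher and 21.3% lower among all tested genes. The call of Ksr1 passed under all 15 alternatives, its log2 change lying between 1.25 and 1.36. Its lowest level, in NS cells with DMSO, rested on 32 and 25.5 counts, and this pair of libraries enters both the Ras response in NS cells and the knockdown effect under DMSO.

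The MEK genes and Mapk3 gave narrow intervals around 0 in NS cells. Map2k1 was at 62.0 and 64.3 CPM with Ras, against 64.8 and 63.5 CPM with DMSO, a log2 change of -0.02 (95% interval -0.13 to 0.09). Map2k2 was at 173 and 171 CPM with Ras, against 174 and 176 CPM with DMSO (-0.03, interval -0.11 to 0.05). Mapk3 was at 73.0 and 71.8 CPM with Ras, against 68.3 and 77.9 CPM with DMSO (-0.01, interval -0.14 to 0.11). These intervals leave room for changes of at most about 0.14 on the log2 scale.

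Sos1 was at 108 and 103 CPM with Ras, against 103 and 104 CPM with DMSO in NS cells (0.03, interval -0.07 to 0.13). Nf1 was at 164 and 130 CPM with Ras, against 121 and 104 CPM with DMSO (0.38, interval -0.24 to 1.00, adjusted p = 0.269). Araf was at 32.7 and 34.1 CPM with Ras, against 36.2 and 35.5 CPM with DMSO (-0.10, interval -0.25 to 0.04). Braf was at 88.7 and 76.8 CPM with Ras, against 77.2 and 69.2 CPM with DMSO (0.17, interval -0.03 to 0.38, adjusted p = 0.167). Braf passed in 5 of the 15 alternatives, which brought the count to 2 of 8. These were the fits without the filter on low counts, with the length trend removed, without NS Dox-4OHT replicate 2 and without each of the knockdown libraries with Ras.

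The interaction tests whether the Ras response differed between knockdown and NS cells. Map2k1 and Mapk3 responded more in knockdown cells, by 0.47 ± 0.08 (adjusted p = 1.7e-05) and 0.33 ± 0.08 (adjusted p = 0.00317) on the log2 scale. These 2 of 8 genes were called higher and 0 lower, against 20.2% higher and 18% lower among all tested genes, and both calls passed in all 14 alternatives possible for the interaction. The value of Mapk3 was 0.23 without NS DMSO replicate 2 (adjusted p = 0.0429). For Ksr1 the difference was -0.55 ± 0.26, with a 95% interval from -1.08 to -0.02, but its adjusted p of 0.097 did not pass. The differences were 0.07 for Map2k2 (interval -0.04 to 0.18), -0.04 for Sos1 (-0.18 to 0.11), 0.18 for Araf (-0.03 to 0.38), -0.19 for Braf (-0.48 to 0.11) and -0.35 for Nf1 (-1.21 to 0.52). Braf passed with no low-count filter (-0.19, adjusted p = 0.0372) and without knockdown Dox-4OHT replicate 2 (-0.30, adjusted p = 0.0319).

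Within the MEK pair the share of each gene was taken from CPM per kb, a level per length. Map2k1 made up 25.7% and 25.9% of the MEK pair in knockdown cells with Ras, 20.7% and 21.0% in knockdown cells with DMSO, 26.6% and 27.5% in NS cells with Ras and 27.3% and 26.6% in NS cells with DMSO. Its share was thus lowest in knockdown cells with DMSO. The summed MEK level was 128 and 127 CPM per kb in knockdown cells with Ras, 118 and 114 in knockdown cells with DMSO, 98.3 and 98.4 in NS cells with Ras and 99.9 and 100.5 in NS cells with DMSO. Every knockdown library lay above every NS library in this sum. With 2 libraries against 2, an exact two-sided permutation test cannot give a p below 0.333, so these shares are given as values.

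**Figure D3:**
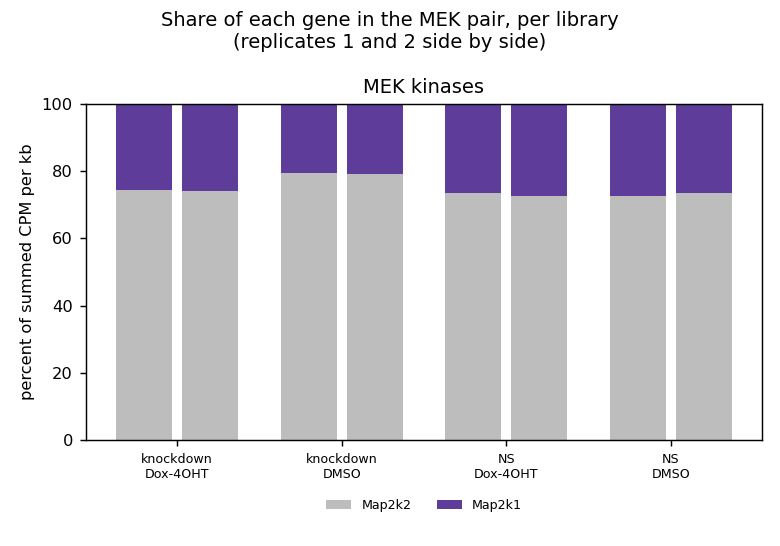
Share of Map2k1 and Map2k2 in the summed CPM per kb of the MEK pair, in percent, with a bar for each library (replicates 1 and 2 of a group side by side). The Map2k1 share is lowest in knockdown cells with DMSO, at 20.7% and 21.0%, and 25.7% to 27.5% in the other groups.

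Mapk3, Map2k1 and Ksr1 had the widest ranges of group means among the 8 genes, and the genes most like them over the 8 libraries were sought among 9093 genes with at least 10 CPM on average. The measure was Pearson's r of log2 CPM, which libraries of 4 groups can bring near 1 for many genes, so it is a description. The nearest to Ksr1 were Arhgap28 (r = 0.996), Phlpp1 (0.995), a phosphatase gene, and Uck2 (0.994), a uridine-cytidine kinase gene. Arhgap28 averaged 15.8 CPM in knockdown cells with Ras, 11.6 in knockdown cells with DMSO, 9.58 in NS cells with Ras and 5.62 in NS cells with DMSO. The nearest to Mapk3 were Tspyl2 (0.995), Flii (0.984) and Arrdc1 (0.980). Those nearest to Map2k1 were Nedd4l (0.985), a ubiquitin ligase gene, Aldoart2 (0.983), an aldolase retrogene whose reads may come from near-identical copies, and the integrin gene Itgb5 (0.982). Nedd4l averaged 102 CPM in knockdown cells with Ras, 77.4 in knockdown cells with DMSO, 82.8 in NS cells with Ras and 82.8 in NS cells with DMSO.

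The rest of the pathway was read from 6 lists of other genes, with the same fit and threshold. Up to 3 called genes of each are named by smallest p. Map3k8 and Ksr2 belong to a further list, which is not counted here, as some of its genes are not reported. Of 15 exchange factor and adaptor genes 10 could be tested, of 9 Ras GTPase-activating protein genes 7, of 20 scaffolds and regulators 19, of 11 ERK-activated kinases and ternary complex factors all 11, of 13 kinases of the JNK, p38 and ERK5 arms 12, and of 16 ERK output and feedback genes all 16. Those not tested, such as Ksr2, the closest relative of Ksr1, did not exceed 0.391 CPM in any library.

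In the knockdown effect under Dox and 4OHT, where 30.5% of all tested genes were higher and 29.7% lower, 4 GTPase-activating protein genes were higher and 2 lower, with a median log2 change of 0.49. Rasa1, which encodes p120 RasGAP, was at 165 and 171 CPM in knockdown libraries with Ras, against 86.5 and 88.3 CPM in NS libraries with Ras (0.94 ± 0.04, adjusted p = 2.34e-16). Its relatives Rasa4 and Dab2ip changed by 1.11 ± 0.07 and 0.53 ± 0.04. Of exchange factors and adaptors 5 were higher and 3 lower, led by the adaptor genes Crkl (-0.78 ± 0.05) and Crk (0.32 ± 0.04) and the SHP2 phosphatase gene Ptpn11 (0.24 ± 0.03). Map3k8, which encodes a MEK kinase outside the RAF family, was higher, with 8.40 and 8.75 CPM in knockdown libraries with Ras, against 2.39 and 3.15 CPM in NS libraries with Ras (1.62 ± 0.19). Of scaffolds and regulators 8 were higher and 6 lower, led by the 14-3-3 gene Ywhab (-0.68 ± 0.03) and the scaffold genes Iqgap1 (0.34 ± 0.03) and Cnksr3 (-0.56 ± 0.06). Of ERK-activated kinases and factors 9 were higher and 1 lower, led by Elk3 (0.69 ± 0.05), Rps6ka3 (0.54 ± 0.04) and Mknk2 (0.48 ± 0.05). The JNK, p38 and ERK5 arms had 4 higher and 2 lower, led by the p38 genes Mapk13 (2.50 ± 0.16) and Mapk12 (1.73 ± 0.15) and by Map2k7 (-0.48 ± 0.05). Of ERK output genes 12 were higher and 0 lower, led by Ier3 (2.41 ± 0.05), Fosl1 (2.36 ± 0.12) and Etv5 (0.77 ± 0.06).

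In the knockdown effect under DMSO, where 30.9% of all tested genes were higher and 31% lower, 4 GTPase-activating protein genes were higher and 1 lower, led by Rasa1 (0.88 ± 0.04), Dab2ip (0.71 ± 0.04) and Rasa4 (1.31 ± 0.09). Exchange factors and adaptors had 3 higher and 5 lower, led by Crkl (-0.71 ± 0.05), Crk (0.43 ± 0.04) and Ptpn11 (0.32 ± 0.03). The 8 calls of that list became 5 with DESeq2, and also without NS DMSO replicate 1, NS DMSO replicate 2 or knockdown DMSO replicate 1. Map3k8 was higher (0.60 ± 0.22), a call that ended with DESeq2 (adjusted p = 0.143) and without NS DMSO replicate 2 (0.151) or knockdown DMSO replicate 2 (0.18). Scaffolds and regulators had 8 higher and 9 lower, led by Ywhab (-0.70 ± 0.03), the chaperone gene Hsp90ab1 (0.34 ± 0.03) and Erbin (-0.42 ± 0.04). ERK-activated kinases and factors had 7 higher and 2 lower, led by the RSK genes Rps6ka3 (0.89 ± 0.04) and Rps6ka6 (0.93 ± 0.06) and by Elk3 (0.62 ± 0.05). The JNK, p38 and ERK5 arms had 5 higher and 2 lower, led by Map2k7 (-0.53 ± 0.05), Mapk13 (1.62 ± 0.18) and Mapk14 (0.37 ± 0.04). ERK output genes had 15 higher and 0 lower, led by Etv4 (3.09 ± 0.07), Etv5 (3.77 ± 0.12) and Ier3 (1.18 ± 0.06). The median over the 16 output genes was 1.54, beside 0.26 over the 8 cascade genes.

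In the Ras response of knockdown cells, where 19.5% of all tested genes were higher and 16.6% lower, 14 output genes were higher and 1 lower, led by Ier3 (1.94 ± 0.05), Etv5 (1.25 ± 0.07) and the immediate early gene Egr1 (-1.30 ± 0.08). The median over the 16 was 0.78, beside 0.06 over the 8 cascade genes. GTPase-activating protein genes had 4 higher and 0 lower, led by Rasa4 (0.61 ± 0.07), Rasa1 (0.25 ± 0.04) and Rasa2 (0.37 ± 0.11). The call of Rasa2 ended without knockdown DMSO replicate 1 (adjusted p = 0.115) or knockdown Dox-4OHT replicate 1 (0.0939) and with DESeq2 (0.149), and the list had 2 calls in each of these. Of the adaptors only Gab2 was called (0.89 ± 0.13), and without knockdown Dox-4OHT replicate 1 there were 2 calls. Map3k8 was higher (1.20 ± 0.17). Scaffolds and regulators had 3 higher and 3 lower, led by Pea15a (0.50 ± 0.05), Cnksr1 (0.84 ± 0.09) and Hsp90ab1 (-0.26 ± 0.03). ERK-activated kinases and factors had 4 higher and 3 lower, led by Elk3 (0.71 ± 0.05), Rps6ka6 (-0.45 ± 0.06) and Rps6ka4 (-0.26 ± 0.04). In the JNK, p38 and ERK5 arms Mapk13 (0.91 ± 0.13) and Mapk12 (0.51 ± 0.13) were higher and 0 lower, and the call of Mapk12 ended without knockdown DMSO replicate 2 (0.0807) and with DESeq2 (0.0832).

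In the Ras response of NS cells, where 20.8% of all tested genes were higher and 21.3% lower, 15 output genes were higher and 0 lower, led by Etv4 (3.41 ± 0.07), Etv5 (4.24 ± 0.12) and the feedback inhibitor gene Spry1 (1.92 ± 0.11). The median over the 16 was 1.60, beside 0.01 over the 8 cascade genes and 0.00 over all tested genes. Etv4 was at 114 and 125 CPM with Ras, against 10.7 and 11.8 CPM with DMSO. GTPase-activating protein genes had 5 higher and 0 lower, led by Rasa4 (0.81 ± 0.09), Rasa3 (0.31 ± 0.04) and Dab2ip (0.21 ± 0.04). Scaffolds and regulators had 4 higher and 5 lower, led by Cnksr3 (0.63 ± 0.06), Erbin (-0.46 ± 0.04) and Pebp1 (-0.31 ± 0.04). ERK-activated kinases and factors had 4 higher and 4 lower, led by Elk3 (0.63 ± 0.05), Rps6ka2 (-0.41 ± 0.06) and Rps6ka1 (-0.24 ± 0.04). That list had 5 calls when replicate 1 of either NS group was left out, and 4 without NS DMSO replicate 2. Among adaptors Crk was higher (0.12 ± 0.04) and Gab1 (-0.14 ± 0.04) and Grb2 (-0.10 ± 0.04) were lower. The JNK, p38 and ERK5 arms had 2 higher, Map2k3 (0.12 ± 0.04) and Mapk7 (0.14 ± 0.06), and 0 lower. None of these 5 calls passed with DESeq2 or without NS DMSO replicate 1. Grb2 (adjusted p = 0.0449) and Mapk7 (adjusted p = 0.048) were close to the threshold. They did not pass in 8 and 9 of the 15 alternatives, against 3 for Crk, 3 for Gab1 and 2 for Map2k3. Without NS Dox-4OHT replicate 2 each of these 2 lists had 1 call, and without either knockdown library with Ras the JNK, p38 and ERK5 list had 1.

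The difference between the Ras responses was called positive for 20.2% of all tested genes and negative for 18%. Among the 16 output genes 12 were called negative and 1 positive, led by Etv4 (-2.72 ± 0.09), Etv5 (-2.99 ± 0.15) and Ier3 (1.23 ± 0.08). Scaffolds and regulators had 6 positive and 3 negative calls among 19, led by Cnksr1 (1.16 ± 0.13), Pebp1 (0.37 ± 0.06) and Iqgap1 (0.25 ± 0.05). ERK-activated kinases and factors had 3 positive and 2 negative calls among 11, led by Rps6ka6 (-0.69 ± 0.09), Rps6ka2 (0.65 ± 0.09) and Rps6ka3 (-0.35 ± 0.06). Adaptors had 3 positive and 0 negative calls among 10, with a list median of -0.04: Gab2 (0.83 ± 0.18), Gab1 (0.23 ± 0.06) and Grb2 (0.17 ± 0.05). Grb2 did not pass with DESeq2 (adjusted p = 0.0745) or without NS DMSO replicate 1, NS Dox-4OHT replicate 1 or knockdown Dox-4OHT replicate 1 (0.0511, 0.0735 and 0.106). The calls for Rasa3 (-0.19 ± 0.06), Dab2ip (-0.19 ± 0.06), Map3k8 (1.02 ± 0.30), Mapk12 (0.79 ± 0.23) and Mapk13 (0.88 ± 0.27) also ended with DESeq2. Without NS DMSO replicate 1, GTPase-activating proteins had 0 calls in place of 2. Map3k8 did not pass when replicate 1 of either NS group was left out (adjusted p = 0.104 for DMSO, 0.0519 for Dox-4OHT). Of the GTPase-activating proteins 1 was called without knockdown DMSO replicate 1, NS Dox-4OHT replicate 2 or either knockdown library with Ras. Of the p38 pair 1 was called without NS DMSO replicate 2, knockdown DMSO replicate 2 or NS Dox-4OHT replicate 1.

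**Figure D4:**
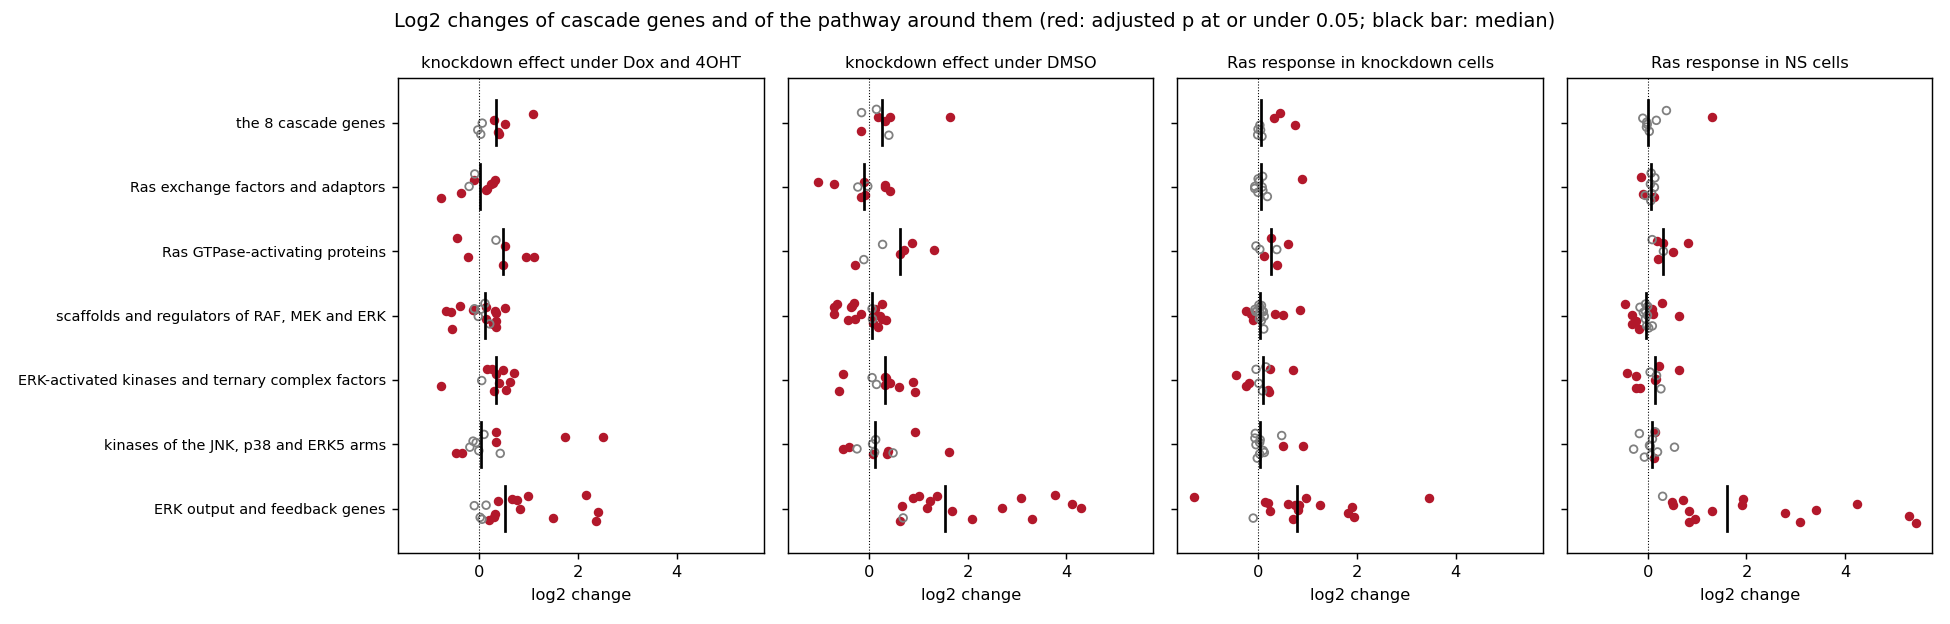
Log2 changes of single genes (points, spread vertically at random) in the 8 cascade genes and the 6 lists around them, for the 4 comparisons on a shared axis; red points had an adjusted p of at most 0.05 and black bars are list medians. In NS cells the median of the ERK output genes is 1.60 with Ras while that of the cascade genes is 0.01. The cascade genes and the lists were chosen with earlier results of these data known.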

How the data were processed

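Libraries of ASZ001 RNA were made with an Illumina TruSeq kit, and reads were analysed with TopHat and HOMER by isoform, per the labels' protocols and design text. The submitters' processing notes also name mm9 and DESeq2. The sources used here do not give versions, strand setting or the handling of reads matching several genes. The deposited values are estimated counts of 24909 entries, not normalized and all multiples of 0.5. They were rounded here, since the tests had been planned for counts. Where a symbol occurred again, the entry with fewer counts was dropped (2 entries).

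In edgeR 4.0.16 (R 4.3.3), filterByExpr kept 12538 genes, and CPM used TMM factors. All 4 groups were fitted together, leaving 4 residual degrees of freedom and a biological coefficient of variation of 3.37%, with robust quasi-likelihood F tests and Benjamini-Hochberg adjustment. In each group the replicates differed beyond sampling noise. The fit was also run on simulated counts with the same spread set for every gene, which cannot give the error rate in these libraries. Alternatives were DESeq2 1.42.0, RLE factors, no filter, only the groups compared, a replicate block, each library left out, Rn45s (ribosomal RNA) left out, and a length trend removed, the last added after the data were seen.

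The cascade genes, the lists and the cell type markers were chosen with earlier results of these data known. All 8 cascade genes are named, and up to 3 called genes of each counted list by smallest p. Map3k8 and Ksr2 are named apart from this rule. Also named are the 3 genes most like each of the 3 cascade genes with the widest range of group means, by log2(CPM + 0.5). Promoters and overlaps come from RefSeq GRCm38.p6, motifs being searched on both strands. Some genes of the pathway and some markers are not reported here.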

Additional observations from a re-analysis of the deposited data

Results flagged for a closer look

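The Ras response of Map2k1, the MEK1 gene, differed between knockdown and NS cells by 0.47 on the log2 scale in edgeR's interaction test (adjusted p = 1.7e-05). Its log2 change with Ras was 0.44 ± 0.05 in knockdown cells, where both libraries with Ras lay above both with DMSO, and -0.02 ± 0.05 in NS cells, where the libraries overlapped. The Ras response of Mapk3, the ERK1 gene, differed by 0.33 (adjusted p = 0.00317), with 0.31 ± 0.06 in knockdown and -0.01 ± 0.06 in NS cells. The summed level of the immune list, nearly all of it Cd68, was 14.8 to 15.5 CPM in knockdown cells with Ras and 4.51 to 8.95 CPM in the other 3 groups, while Ptprc did not exceed 0.213 CPM and Cd3e and Adgre1 had no counts. Rn45s, the ribosomal RNA gene, took 2.49% and 2.57% of counts in knockdown cells with Ras, 0.388% and 1.36% in knockdown cells with DMSO, 0.916% and 2.76% in NS cells with Ras and 0.816% and 0.549% in NS cells with DMSO. Leaving Rn45s out ended neither call.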

How the results depend on the processing

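Of 40 member results (8 genes in 5 comparisons) 16 were called. Of all tested genes, 42.1% were called for the Ras response in NS cells and 36.1% for that in knockdown cells. The shares were 61.9% for the knockdown effect under DMSO, 60.2% for that under Dox and 4OHT, and 38.2% for the interaction. Of the 16 calls, 14 passed in every alternative that could be run. The exceptions were Map2k1 and Mapk3 in the knockdown effect under DMSO. No called value changed sign. With DESeq2, 3100 genes were called for the Ras response in NS cells (edgeR 5281) and 2476 for that in knockdown cells (4531). The interaction had 2694 calls with DESeq2 (edgeR 4791). For the knockdown under DMSO, DESeq2 called 5695 of all genes (edgeR 7763) and 3 of the 8 cascade genes (edgeR 5). For the Ras response in NS cells, 2 cascade genes were called without the filter on low counts, 2 with the length trend removed and 1 to 2 without single libraries. For the knockdown under DMSO 3 to 6 were called without single libraries. Among the lists, DESeq2 called 5 of 19 scaffolds and regulators (edgeR 9) and 4 of 11 ERK-activated genes (edgeR 8) in the Ras response of NS cells, and 11 of 19 scaffolds and regulators (edgeR 17) in the knockdown effect under DMSO. The cause was not tested. The replicate numbers are not stated to mark a shared origin, and the differences between replicates were nearly uncorrelated between groups (r from -0.02 to 0.03); with the replicate block 5319, 4559, 7777, 7554 and 4814 genes were called in the 5 comparisons, and the counts of cascade genes were as in the main model.

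Uncalled values near 0 changed sign. Sos1 had -0.0022 in NS cells with Ras with the length trend removed, and 0.0015 in knockdown cells with RLE factors and 0.0024 with DESeq2; Mapk3 had 0.0024 in NS cells with the length trend removed. Without single libraries, the Ras response in knockdown cells ranged from -0.071 to 0.055 for Sos1, -0.19 to 0.24 for Nf1 and -0.13 to 0.10 for Braf, and that in NS cells from -0.050 to 0.0072 for Map2k1 and -0.10 to 0.084 for Mapk3. The knockdown effect under Dox and 4OHT ranged from -0.16 to 0.26 for Nf1, -0.14 to 0.083 for Braf and -0.0021 to 0.063 for Araf, and the interaction from -0.10 to 0.024 for Sos1. Depth limits Ksr1 most (25.5 to 147 counts).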
